A study of Mus musculus with 38 samples.

Results

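The regions described here were 3363 ATAC-seq peaks that were open in both tumour subsets of young OT-1 cells and low in young naive cells, out of 169323 peaks in the table of naive and OT-1 libraries (1.99%). ATAC-seq measures how readily the Tn5 transposase inserts into chromatin, so a high read count marks open chromatin. A peak was a member when its mean over young libraries was 50 normalized reads or more in OT-1 Tprog and in OT-1 Tterm, at least 3 times the naive mean in each, and when the ratio of the Tterm to the Tprog mean lay between 0.5 and 2. The members were thus chosen by the young naive and young OT-1 values, which are given as a description with no test. Tests were made in aged naive and aged OT-1 libraries and in a separate table of endogenous tumour-infiltrating cells, whose values the rule did not use. The aged comparisons come from a fit that holds the young libraries too, which share in the batch term and the spread, so their counts are also given from a fit to the aged libraries alone. Of the members, 1107 (32.9%) lay within 10000 bp of another member, and all are read from the same libraries, so they are not independent measurements.

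All cells were CD8+ T cells of C57BL/6J mice, labelled wild type throughout, and were either young (10 to 12 weeks) or aged (64 to 68 weeks). Naive cells came from spleen, with 2 young and 2 aged libraries. OT-1 cells, which carry a transgenic T cell receptor for an ovalbumin peptide, were sorted from B16-OVA melanoma 15 days after inoculation, and the labels do not give the age of their hosts. OT-1 Tprog (Slamf6+Tim-3-, the progenitor subset) had 2 young and 2 aged libraries, and OT-1 Tterm (Slamf6-Tim-3+, the terminally exhausted subset) had 7 young and 6 aged. Endogenous cells came from B16-OVA tumours of day 15 as well, with 4 young and 3 aged Tprog libraries, 5 young and 3 aged Tterm libraries, and 2 aged libraries of a Slamf6-Tim-3- subset that the labels call Tadys, for age-associated dysfunctional. Each library pooled sorted cells, and the labels speak of 2 or 3 biological replicates although a group has up to 7 libraries, so p-values measure the spread between libraries, which may be partly technical. Sequencing batches were uneven: all 4 naive libraries were Batch 3, both aged OT-1 Tprog libraries Batch 6, and aged OT-1 Tterm replicates 1 to 5 Batch 4 and 5 with replicate 6 in Batch 6. Tumour and spleen therefore cannot be told apart from the batch in any comparison with naive cells. All 17 endogenous libraries share the label Batch 1 and 2, which does not say which library belonged to which batch. No batch term was fitted for them, and the part of batch in the endogenous comparisons was not tested.

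Naive CD8+ T cells keep many regulatory elements closed, and stimulation through the T cell receptor opens elements that bind factors such as NFAT, AP-1 and RUNX. In tumours, persistent antigen drives cells into exhaustion, in which a progenitor subset that depends on TCF-1 sustains itself and gives rise to a terminal subset with high inhibitory receptors. Elements open in both subsets belong to what the tumour states have in common, while elements open in one subset separate them.

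Of the 3363 members, 66 overlapped a RefSeq promoter window (the 250 bases before to 50 bases after a gene's start), at 65 genes. The 250 bases before the start are printed for 7 of these genes, which encode immune receptors, a cytokine or a transcription factor and were chosen after their values were seen, since their levels are described further on. They are 5′ to 3′ on the strand of the gene, from RefSeq on GRCm38.p6 (mm10), with matches to the searched motifs in capitals. The motifs, searched on both strands, were AP-1 (TGANTCA), NFAT (TGGAAA), RUNX (TGTGGT), ETS (CCGGAA), TCF/LEF (CTTTGA), T-box (AGGTGTGA), NBRE (AAAGGTCA), SP/KLF (GGGCGG) and IRF (a longer motif, by its name alone). AP-1 letters read the same on both strands, no motif contains another, and NFAT and IRF matches can share letters.

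Pdcd1 (chr1:94052554-94052803, - strand): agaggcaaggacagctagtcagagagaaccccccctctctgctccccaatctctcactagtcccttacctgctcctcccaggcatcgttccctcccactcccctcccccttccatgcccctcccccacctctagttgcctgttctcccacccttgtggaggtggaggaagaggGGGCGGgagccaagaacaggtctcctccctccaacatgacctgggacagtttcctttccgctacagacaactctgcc
Zbtb32 (chr7:30592943-30593192, - strand): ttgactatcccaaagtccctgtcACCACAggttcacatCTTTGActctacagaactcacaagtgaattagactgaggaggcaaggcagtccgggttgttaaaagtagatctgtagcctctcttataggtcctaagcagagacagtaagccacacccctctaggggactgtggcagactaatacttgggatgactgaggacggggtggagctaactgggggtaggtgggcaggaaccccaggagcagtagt
Tnfrsf4 (chr4:156013445-156013694, + strand): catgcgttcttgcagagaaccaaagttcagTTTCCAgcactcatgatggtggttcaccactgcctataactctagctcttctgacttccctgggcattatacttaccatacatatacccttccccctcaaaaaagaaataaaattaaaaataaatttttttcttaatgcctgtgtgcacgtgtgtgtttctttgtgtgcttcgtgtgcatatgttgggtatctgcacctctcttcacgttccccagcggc
Il21 (chr3:37232637-37232886, - strand): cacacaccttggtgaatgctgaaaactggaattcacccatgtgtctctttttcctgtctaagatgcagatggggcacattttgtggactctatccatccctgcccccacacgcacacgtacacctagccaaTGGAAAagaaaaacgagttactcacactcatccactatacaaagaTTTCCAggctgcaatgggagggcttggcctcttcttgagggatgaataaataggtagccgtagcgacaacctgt
Klrk1 (chr6:129623865-129624114, - strand): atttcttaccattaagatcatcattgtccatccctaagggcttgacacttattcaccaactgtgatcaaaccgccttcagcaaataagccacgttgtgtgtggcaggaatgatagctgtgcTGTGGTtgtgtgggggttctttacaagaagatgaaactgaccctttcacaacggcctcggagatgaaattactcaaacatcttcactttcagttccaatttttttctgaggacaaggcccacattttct
Klrc1 (chr6:129678974-129679223, - strand): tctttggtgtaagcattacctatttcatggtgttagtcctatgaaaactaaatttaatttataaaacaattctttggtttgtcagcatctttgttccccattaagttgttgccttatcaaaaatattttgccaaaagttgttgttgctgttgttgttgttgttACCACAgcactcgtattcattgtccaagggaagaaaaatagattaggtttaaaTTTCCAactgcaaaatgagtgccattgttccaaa
Ccr8 (chr9:120091883-120092132, + strand): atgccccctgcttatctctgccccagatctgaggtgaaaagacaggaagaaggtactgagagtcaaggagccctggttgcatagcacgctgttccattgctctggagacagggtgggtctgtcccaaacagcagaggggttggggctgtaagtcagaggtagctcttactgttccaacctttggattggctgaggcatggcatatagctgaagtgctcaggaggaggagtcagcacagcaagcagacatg

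The stretch printed for Pdcd1 held 1 SP/KLF match, that of Zbtb32 1 RUNX and 1 TCF/LEF match, that of Tnfrsf4 1 NFAT match and that of Il21 2 NFAT matches. That of Klrk1 held 1 RUNX match, that of Klrc1 1 NFAT and 1 RUNX match, and that of Ccr8 none of the searched letters. Members overlapped 72 windows of 300 bases, and letters were searched in the 250 bases of each window before the start. RUNX letters were present in 26.4% of them, against 10.5% of the 12411 windows overlapped by any tested peak and 12.4% of all 21263 windows. AP-1 letters were present in 12.5% against 3.98% and 6.13%. Against tested and all windows in that order, NFAT letters were present in 19.4% against 14.0% and 17.0%, TCF/LEF in 16.7% against 9.93% and 12.7%, T-box in 2.78% against 0.709% and 0.997%, IRF in 2.78% against 2.65% and 2.96%, and NBRE in 0% against 0.749% and 1.20%. SP/KLF letters, which are rich in G and C, were present in 34.7% of member windows against 61.1% and 42.6%, and ETS letters in 6.94% against 22.7% and 15.0%. Median GC content of the same 250 bases moved with these shares, at 53.2% in member windows and 60.8% in the windows of tested peaks, and its part in them was not tested.

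Members were distal more often than other tested peaks. Within 1000 bp of either end of a protein-coding gene lay 192 members (5.71%), against 18.5% of the 84091 tested peaks, while 1730 (51.4%) lay inside a gene and 1441 (42.8%) between genes, against 45.6% and 35.9%. Among peaks above naive that leaned to 1 subset, with a Tterm mean over 2 times the Tprog mean (1450 peaks) or the reverse (1642 peaks), 7.17% and 5.79% lay at a gene end. The median member was 1141 bp wide, against 921 bp over tested peaks. Members were assigned by distance to gene bodies, protein-coding genes up to 100000 bp away being considered, which left 231 members without a gene and gave the others to 1937 genes, of which 1333 had 1 member and 76 had 5 or more. Runx2, a Runt-domain transcription factor, had the most members (20 of its 56 tested peaks), followed by Itpr1, the calcium channel of the endoplasmic reticulum (15 of 59), Atxn1 (13 of 61), F13a1, a transglutaminase subunit of clotting (11 of 28), Etv6, an ETS-family repressor (10 of 47), and Ubash3b, a phosphatase that dampens T cell receptor signalling (10 of 40). Gene length was not considered in these counts, and the nearest gene need not be the one a peak regulates.

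In the young libraries that chose them, the median member had 33.7 normalized reads in naive cells, 169 in OT-1 Tprog and 178 in OT-1 Tterm. Each of these is the median over members of the group mean, and the same median over all tested peaks lay between 35.2 and 43.3 in the 6 groups of the table. Library medians were 33.4 and 34.5 in young naive, 166 and 174 in young Tprog, and 133 to 204 with a median of 177 in young Tterm, where the lowest was a Batch 6 library. Members took 1.59% to 2.38% of all reads in peaks in naive libraries and 4.73% to 9.04% in OT-1 libraries from tumours. At the thresholds, the 3 members just inside the level of 50 had 50.07 to 50.23 normalized reads in their lower subset and the 3 peaks just outside 49.92 to 49.996. The corresponding folds over naive were 3.001 to 3.002 inside and 2.9991 to 2.9999 outside, the low ratios 0.5001 to 0.503 and 0.4990 to 0.4996, and the high ratios 1.994 to 1.999 and 2.002 to 2.012. The fold clause was the strictest of them, as 25306 peaks failed it alone.

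**Figure D1:**
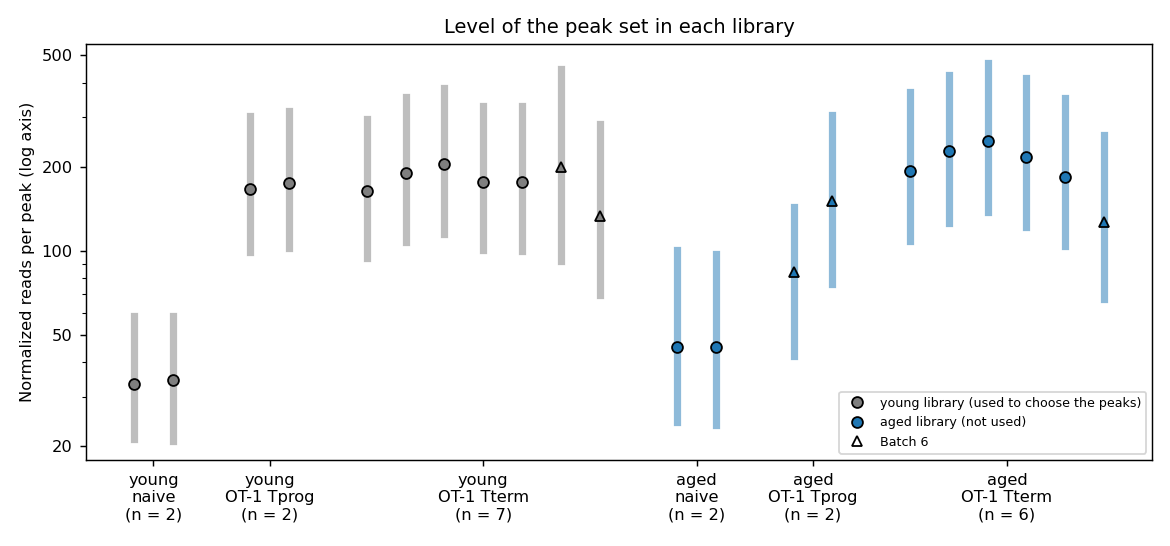
Median normalized reads over the 3363 members (points, log axis) with the range of the middle 50% of members (bars) in each library of the naive and OT-1 table, by group; grey marks young libraries, blue aged libraries and triangles Batch 6. Naive libraries sit at 33.4 to 45.4 and OT-1 libraries from tumours at 83.8 to 248 for the members.

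Reads in peaks ran from 6802732 to 27724769 per library in the naive and OT-1 table and from 4635804 to 87558165 in the endogenous table. Peaks at the ends of CD8 T cell identity genes (Cd8a, Cd3e and others) were open in every library, with sums of 3154 to 8038 normalized reads over 15 peaks in the naive and OT-1 table and 8169.5 to 11889.7 over 11 peaks in the endogenous table. A library reads many cells at once, so more open cells and more open chromatin per cell cannot be told apart. In the naive and OT-1 table peaks at the ends of melanocyte genes (4 peaks) summed to 344 to 636, those at B cell genes (10 peaks) to 215 to 326 and those at CD4 and regulatory T cell genes (8 peaks) to 599 to 1669.9. Those at myeloid genes (9 peaks) moved with the comparison of aged Tterm against naive, at 1473 to 1585 in aged naive, 1179 to 1665 in aged Tprog and 1620.0 to 1944 in aged Tterm. In endogenous cells (8 peaks) they summed to 2732 to 3001 in aged Tprog and 3040.2 to 3414 in aged Tterm. Other lists did not overlap between aged naive and aged OT-1 Tterm either. CD8 identity sums were 5188 to 5221 and 5629 to 7559, and NK cell sums 779 to 859 and 874 to 1114. Melanocyte sums were 559 to 598 and 375 to 492, and B cell sums 295 to 298 and 215 to 274. The CD4 and regulatory T cell sums overlapped. Over 4 endogenous peaks the CD4 and regulatory T cell sums were 1592 to 1897 in young Tprog and 1903 to 2189 in young Tterm. Those at NK cell genes (5 peaks) summed to 715 to 859 in naive, 482 to 539 in OT-1 Tprog and 708 to 1161 in OT-1 Tterm libraries, so they moved with the Tterm against Tprog comparison. The part of other cell types in these comparisons was not tested. Aged OT-1 Tprog replicate 1 stood apart from the other libraries, with a mean of 46.8 normalized reads per peak against 60.1 to 88.3. Counts and named Tprog differences are therefore also given without it where that changed a call or moved a value by over 1.5 times.

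In aged cells nearly all members were higher in tumour OT-1 Tterm than in naive cells, and fewer were called for OT-1 Tprog. The median member had 44.95 normalized reads in aged naive, 119 in aged OT-1 Tprog and 198 in aged OT-1 Tterm. Library medians were 45.4 and 45.1 in naive, 83.8 and 151 in Tprog, and 126 to 248 with a median of 204 in Tterm. Both Tprog libraries lay above both naive libraries, and replicate 6, the Batch 6 library, was the lowest of Tterm. A call here is a limma adjusted p below 0.05 over all 84091 tested peaks, on log2 of normalized reads plus 1. Both aged Tprog libraries are Batch 6, so a fitted Tprog difference includes the batch term and can be larger or smaller than the ratio of the levels printed beside it. Without that term the median Tprog difference over members was 0.96 and 1346 members were called higher. In aged OT-1 Tterm against aged naive, 3108 members (92.4%) were called higher, where the background over all tested peaks was 21.4%, and 6 members were called lower against a background of 26.3%. The median log2 difference was 2.11 over members and -0.17 over all tested peaks. In aged OT-1 Tprog against aged naive, 1517 members (45.1%) were called higher against a background of 10.0%, and 32 members lower against 18.1%, with median log2 differences of 1.20 and -0.36. Without Tprog replicate 1 the count was 2176 higher and 10 lower, and without Tprog replicate 2 it was 1435 higher and 399 lower. In the fit to the aged libraries alone, where the batch term rests on Tterm replicate 6, 3021 members were called higher and 4 lower in Tterm and 1216 and 1 in Tprog, with median differences of 2.16 and 1.57. Both comparisons share the aged naive libraries. Scored on the rule's own clauses, 2395 members (71.2%) had an aged Tterm mean at least 3 times the aged naive mean, against 13.5% of tested peaks, and 1344 members (39.96%) an aged Tprog mean that high, against 10.9%. Tprog replicate 1 alone reached it at 922 members and replicate 2 alone at 1652. The level of 50 was reached by 3299 members (98.1%) in aged Tterm, against 42.1% of tested peaks, and by 2988 (88.8%) in aged Tprog, against 42.4%.

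**Figure D2:**
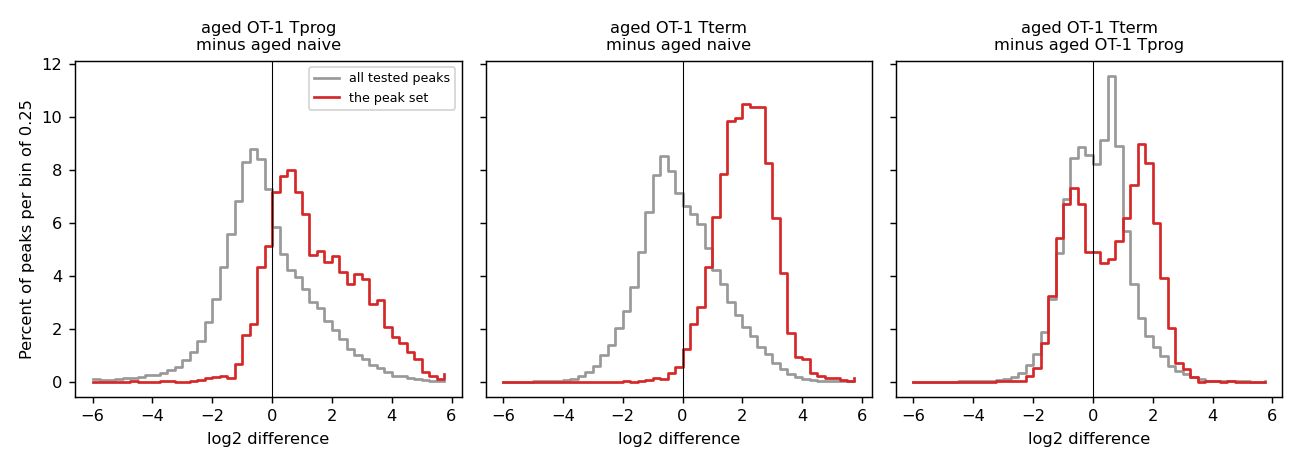
Distributions of the log2 difference over the members (red) and over all tested peaks (grey) in the 3 comparisons among aged libraries, fitted with limma. The member medians are 1.20 for OT-1 Tprog against naive, 2.11 for OT-1 Tterm against naive and 0.73 for OT-1 Tterm against Tprog, and those of all tested peaks -0.36, -0.17 and 0.15.

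Members near inhibitory receptor and terminal exhaustion genes were called higher in aged OT-1 Tterm at 40 of 41 peaks, where 92.4% of all members were. The list of 20 genes had 41 members among its 235 tested peaks (17.4%, where members made up 4.00% of all tested peaks), at 13 of the genes, and none was called lower than aged naive, with a median log2 difference of 1.99. Over all members 45.1% were called higher in aged OT-1 Tprog and 0.95% lower. Of the 41, 9 were called higher there, at Prdm1, Rgs1, Tox, Ctla4, Rgs16 and Tigit, and 1 lower, at Prdm1. These counts were 22 and 0 without Tprog replicate 1 and 10 and 5 without replicate 2. Pdcd1, which encodes PD-1, had 6 members of 10 tested peaks, Prdm1 (BLIMP-1) and Rgs1 6 each, Tox 5 of 45, Tigit 4 and Havcr2 (TIM-3) 3 of 8, while Nr4a1, Nr4a2, Nr4a3 and Cd101 had 0. TIM-3 was a sorting marker of the subsets.

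By the smaller of the 2 aged OT-1 means, which ranks members of a gene here, the highest Pdcd1 member lay at the gene end (chr1:94052124-94056834) and includes the promoter printed above. It had 584 and 523 normalized reads in aged naive, 406 and 956 in aged OT-1 Tprog and 1824 to 2431 with a median of 2153 in aged OT-1 Tterm. All 6 Tterm libraries were above every naive and Tprog library, and the Tprog libraries lay on both sides of naive. The log2 difference was 1.92 ± 0.26, limma adjusted p = 3.53e-06 (value ± standard error) for Tterm against naive and 0.05 ± 0.38, limma adjusted p = 0.929 for Tprog against naive. That of Tprog at Pdcd1 was 0.67 (limma adjusted p = 0.166) without Tprog replicate 1 and -0.56 (limma adjusted p = 0.189) without replicate 2. In young libraries, which chose it, the levels were 369.5 and 383 in naive, 1415 and 1573 in Tprog and 1620.1 to 3006 with a median of 2038 in Tterm.

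The highest Havcr2 member, inside the gene (chr11:46466320-46468054), had 126 and 129 in aged naive, 88.4 and 324 in aged Tprog and 624 to 904 with a median of 779 in aged Tterm. Again all Tterm libraries stood above the others, with a log2 difference of 2.58 ± 0.30, limma adjusted p = 2.99e-07 from naive, while the Tprog difference was 0.28 ± 0.43, limma adjusted p = 0.649. That of Tprog was 1.21 (limma adjusted p = 0.00663) without Tprog replicate 1 and -0.65 (limma adjusted p = 0.102) without replicate 2. A member inside Tnfrsf9, the costimulatory receptor 4-1BB (chr4:150924066-150925425), had 689 and 612 in aged naive, 397 and 1486 in Tprog and 1403 to 2279 with a median of 1935 in Tterm. Its Tterm libraries did not overlap naive, at a log2 difference of 1.54 ± 0.33, limma adjusted p = 0.000588. Tox, the transcription factor that programs exhaustion, was called in both subsets at its highest member inside the gene (chr4:6880694-6882049). Levels were 57.1 and 49.0 in aged naive, 72.2 and 262 in Tprog and 89.8 to 232 with a median of 198 in Tterm, so every tumour library was above both naive libraries. The log2 differences were 1.97 ± 0.48, limma adjusted p = 0.00383 for Tprog and 1.81 ± 0.33, limma adjusted p = 0.000124 for Tterm. At Tox that of Tprog was 2.90 (limma adjusted p = 1.08e-05) without Tprog replicate 1 and 1.05 (limma adjusted p = 0.0444) without replicate 2.

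Members near AP-1 and related bZIP genes were all called higher in aged Tterm, and 11 of 18 in aged Tprog, where 92.4% and 45.1% of all members were. The list also holds Irf4, which is not a bZIP gene and gave 3 of the 18 members. Of 182 tested peaks of this list 18 were members (9.89%). The median log2 differences from naive were 2.23 in Tterm and 1.95 in Tprog. In Tprog it was 15 higher and 0 lower without replicate 1 and 7 and 3 without replicate 2. Bach2, a repressor that competes with AP-1 for its sites, had its highest member inside the gene (chr4:32404881-32406395), at 72.2 and 77.8 in aged naive, 425 and 355 in Tprog and 146 to 454 with a median of 357 in Tterm. Tumour libraries did not overlap naive ones, and the log2 differences were 3.34 ± 0.30, limma adjusted p = 2.04e-08 for Tprog (2.36 without the batch term) and 2.23 ± 0.20, limma adjusted p = 1.05e-08 for Tterm. Batf3, a partner of JUN, had a member inside the gene (chr1:191102666-191103621) at 113 and 127 in naive, 100.1 and 718 in Tprog and 203 to 667 with a median of 497 in Tterm. Its 2 Tprog libraries were far apart, with replicate 1 below naive, and the Tprog difference of 1.55 ± 0.63, limma adjusted p = 0.0657 was not called, while that of Tterm was 1.98 ± 0.43, limma adjusted p = 0.000698. The Tprog difference at Batf3 was 2.96 (limma adjusted p = 2.8e-05) without Tprog replicate 1 and 0.13 (limma adjusted p = 0.835) without replicate 2.

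Of the effector list (granzymes, cytokines, Tbx21, Eomes and others) 23 of 213 tested peaks were members (10.8%), with 19 called higher in aged Tterm and 4 in aged Tprog than in naive, the 4 at Csf2 (2 members), Xcl1 and Zeb2. Without Tprog replicate 2 the Tprog count was 6 higher and 9 lower, and without replicate 1 it was 8 and 0. The Tterm count was 11 without aged naive replicate 1 and 10 without replicate 2. Gzmb, the granzyme of cytotoxic granules, had 0 members of 13 tested peaks, whereas Gzmk had 3 of 3, Tbx21 (T-bet) 5, Zeb2 5 and Ifng 4 of 34. At the gene end of Ifng (chr10:118440455-118443322), the cytokine interferon gamma, levels were 643 and 627 in aged naive, 246 and 656 in Tprog and 779 to 1159 with a median of 949 in Tterm. Although every Tterm library was above naive, the difference of 0.53 ± 0.28, limma adjusted p = 0.117 was not called; young naive libraries had 228 and 202. The Gzmk promoter member was likewise not called, at 80.6 and 71.2 in aged naive and 63.2 to 99.6 with a median of 73.6 in Tterm. Members of the T cell receptor and costimulation list numbered 19 of 314 tested peaks (6.05%), of which 18 were higher in Tterm and 5 in Tprog (at Lcp2, Nfatc1, Nfatc2, Nfkb1 and Zap70), with a median log2 difference of 1.74 in Tterm. Of cytokine receptor peaks 15 of 170 were members (8.82%), 14 higher in Tterm, led by Il10ra (5) and Il1rl1 (4), and 4 in Tprog, at Il1rl1 and Il2ra. Of residency and homing peaks 8 of 189 (4.23%) were members, 5 higher in Tterm (among them Cxcr4 with 2, Itgb1 and Runx3) and 3 in Tprog (Cxcr4 with 2 and Itgb1). Against aged naive, none of the members of these 4 lists was called lower with all libraries; without Tprog replicate 2, in Tprog, 9 effector, 3 costimulation, 4 cytokine receptor and 2 residency members were. Without Tprog replicate 1 the Tprog counts were 10 higher for costimulation, 9 for cytokine receptors and 3 for residency. The residency share of 4.23% is near the 4.00% over all tested peaks. Of all members, against which the counts of these 4 lists are to be set, 92.4% were called higher in Tterm and 45.1% in Tprog. The costimulation list shares Tnfrsf9 with the exhaustion list.

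Il2ra, the high-affinity chain of the interleukin 2 receptor, had its highest member inside the gene (chr2:11690313-11691760). It had 20.2 and 23.5 normalized reads in aged naive, 76.8 and 396 in Tprog and 66.9 to 262 with a median of 225 in Tterm. No tumour library overlapped naive, and the log2 differences were 3.95 ± 0.56, limma adjusted p = 1.57e-05 for Tprog and 3.22 ± 0.38, limma adjusted p = 4.8e-07 for Tterm. That of Tprog was 5.13 without Tprog replicate 1 and 2.77 without replicate 2, and 2.95 without the batch term. The member over the Tnfrsf4 (OX40) promoter (chr4:156013181-156014895), whose nearest gene body is the neighbouring Sdf4, had 68.0 and 61.4 in aged naive, 452 and 280.0 in Tprog and 94.7 to 467 with a median of 403 in Tterm. It was called in both, at 3.45 ± 0.44, limma adjusted p = 3.65e-06 for Tprog (2.44 without the batch term) and 2.46 ± 0.30, limma adjusted p = 6.97e-07 for Tterm. The Ccr8 promoter member (chr9:120090455-120092721), at a chemokine receptor gene, had 182 and 144 in naive, 702 and 912 in Tprog and 350.1 to 936 with a median of 782 in Tterm. All tumour libraries were above naive at Ccr8, with differences of 3.20 ± 0.35, limma adjusted p = 5.24e-07 (2.29 without the batch term) and 2.28 ± 0.24, limma adjusted p = 9.56e-08. The Zbtb32 member (chr7:30592687-30594874), at a gene for a repressor of lymphocyte proliferation, had 134 and 137 in naive, 119 and 1284 in Tprog and 835 to 1889 with a median of 1578 in Tterm. Of the aged differences from naive, that of Tterm was called there, at 3.43 ± 0.50, limma adjusted p = 7.2e-06. That of Tprog at Zbtb32 was 3.54 (limma adjusted p = 6.75e-06) without Tprog replicate 1 and 0.12 (limma adjusted p = 0.865) without replicate 2. At the Il21 promoter (chr3:37232622-37233732) levels were low in every group, with 23.5 and 19.6 in naive, 75.6 and 30.2 in Tprog and 36.7 to 77.6 with a median of 57.9 in Tterm. Both differences were called there, at 1.56 ± 0.49, limma adjusted p = 0.0191 and 1.42 ± 0.34, limma adjusted p = 0.00152. The Tprog difference at Il21 was 0.91 (limma adjusted p = 0.203) without Tprog replicate 1 and 2.21 (limma adjusted p = 0.000847) without replicate 2.

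Of the genes with the most members, Runx2 and Itpr1 are given here at their highest member. The highest Runx2 member (chr17:44765825-44767460, inside the gene) had 31.9 and 54.9 in aged naive, 255 and 809.9 in Tprog and 144 to 540.5 with a median of 487 in Tterm. Its differences were 4.80 ± 0.44, limma adjusted p = 3.72e-08 for Tprog and 3.42 ± 0.30, limma adjusted p = 7.54e-09 for Tterm. The highest Itpr1 member (chr6:108337341-108338901, inside the gene) had 87.4 and 105 in naive, 405 and 1385 in Tprog and 298 to 1110.2 with a median of 894 in Tterm, at 4.19 ± 0.58, limma adjusted p = 1.41e-05 and 3.24 ± 0.40, limma adjusted p = 8.69e-07. Neither overlapped naive in any tumour library. The Tprog difference of Runx2 was 5.63 without Tprog replicate 1 and 3.96 without replicate 2, and 3.41 without the batch term. That of Itpr1 was 5.07 without Tprog replicate 1 and 3.30 without replicate 2, and 2.96 without the batch term. The naive and progenitor list had 10 members of 358 tested peaks (2.79%). Of these, 9 were called higher in Tterm and 7 in Tprog than in naive and 0 lower, with medians of 2.22 and 2.99. Over all members the shares called higher were 92.4% and 45.1%. The Tprog count was 8 and 0 without Tprog replicate 1 and 7 and 1 without replicate 2. They lay at Bach2 and Myb (3 members each), Cxcr5, Foxo1, Satb1 and Tcf7, and Bach2 stands on the AP-1 list too. The Tcf7 member (chr11:52293846-52294978), near the gene of TCF-1, was not called in either, with 223 and 227 in aged naive, 138 and 402 in Tprog and 175 to 338 with a median of 271 in Tterm. Its Tprog difference was 1.12 (limma adjusted p = 0.0358) without Tprog replicate 1 and -0.41 (limma adjusted p = 0.402) without replicate 2. It was a member because young naive libraries had 90.0 and 62.5. Of lists for other cell types, NK cell genes had 3 members of 27 tested peaks (11.1%) and melanocyte genes 1 of 12 (8.33%). CD4 or regulatory T cell genes had 3 of 75 (4.00%), B cell genes 1 of 29 (3.45%) and myeloid genes 1 of 40 (2.50%). Members made up 4.00% of all tested peaks. The melanocyte member, at Sox10, was called higher in aged OT-1 Tprog and Tterm than in aged naive. It was also called higher in endogenous Tterm than in Tprog at both ages.

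**Figure D3:**
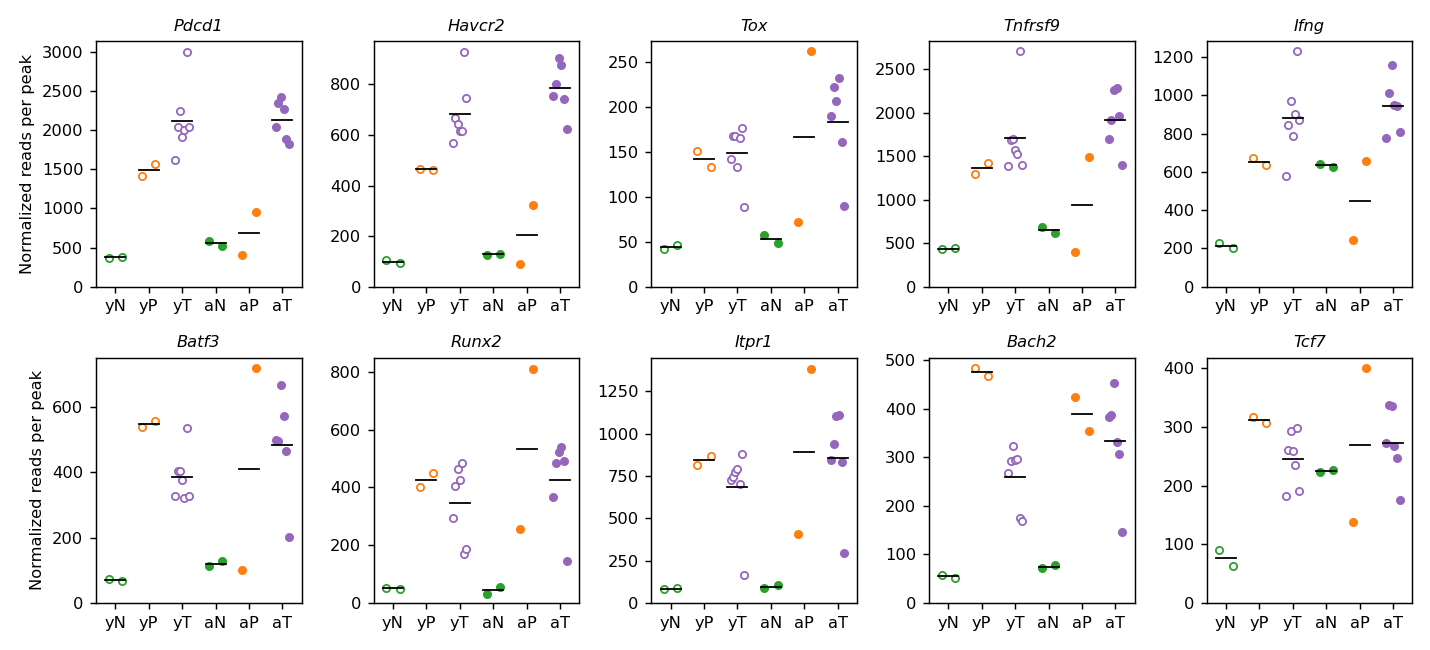
Normalized reads of 10 named members in every naive (N), OT-1 Tprog (P) and OT-1 Tterm (T) library, with axes from 0 and y for young, a for aged, naive in green, OT-1 Tprog in orange and OT-1 Tterm in purple, open circles for young, filled for aged, and a bar at each group mean. Pdcd1 and Havcr2 have all aged Tterm libraries above the aged Tprog libraries, whereas Bach2, Runx2, Tox and Itpr1 have both subsets above naive.

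Comparing the 2 aged OT-1 subsets, more members were called higher in Tterm than lower, although all had young subset means within a factor of 2. Of the members, 1244 (37.0%) were called higher in aged Tterm than in aged Tprog against a background of 11.3%, and 324 (9.63%) lower against 3.39%. The median log2 difference was 0.73 over members and 0.15 over all tested peaks, and the middle 50% of members ran from -0.50 to 1.65. Members had higher levels than the median tested peak, and this background was not matched for level. Of the 48817 peaks with a mean of 30 or more, 10505 were called higher and 2915 lower, with a median of 0.45. In that fit 1341 members were called higher and 387 lower. In aged means 1305 members (38.8%) had a Tterm to Tprog ratio above 2 and 9 (0.268%) one below 0.5, against 9.4% and 9.11% of tested peaks; 2049 (60.9%) kept a ratio between 0.5 and 2, against 81.5%. With Tprog replicate 2 alone 964 members had a ratio above 2 and 61 one below 0.5, and with replicate 1 alone 2009 and 16. This comparison depended on libraries, scaling and the batch term. Without Tprog replicate 1 it gave 675 higher and 497 lower, without Tprog replicate 2 1764 and 354, and without Tterm replicate 6 1268 and 144. With equal library totals the split was 1053 higher and 686 lower, with quantile scaling 1124 and 638, and with a fit to the aged libraries alone 107 and 65. Without the batch term it was 1547 higher and 3 lower. Within Batch 6, where 2 Tprog libraries face 1 Tterm library, 1 member was called. Both aged Tprog libraries are Batch 6 and 5 of 6 Tterm libraries are not, so the subset and the batch are separated only through the batch term of the fit.

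Over all members 37.0% were called higher in aged OT-1 Tterm than in Tprog and 9.63% lower, beside which the list counts here stand. Of the 41 inhibitory receptor and exhaustion members 26 were called higher in Tterm than in Tprog and 1, at Prdm1, lower, with a median log2 difference of 1.52. Over the scalings, filters and tools tried the count ran from 19 to 30 higher and 0 to 2 lower, and with the aged libraries alone it was 2 and 0. Without Tprog replicate 1 it was 16 and 1, and without replicate 2 it was 30 and 1. The Pdcd1 member differed by 1.86 ± 0.31, limma adjusted p = 0.000254 and that of Havcr2 by 2.30 ± 0.35, limma adjusted p = 9.6e-05. Effector members gave 10 higher and 0 lower, among them Ifng at 1.33 ± 0.34, limma adjusted p = 0.00878, and costimulation members 9 and 0. The effector count was 4 and 2 without Tprog replicate 1, 16 and 0 without replicate 2 and 1 and 0 with the aged libraries alone. The costimulation count was 3 and 0, 13 and 0, and 0 and 0 in the same settings. The Ifng difference was 0.62 (limma adjusted p = 0.273) without Tprog replicate 1 and 2.04 (limma adjusted p = 1.76e-05) without replicate 2. Members of the AP-1 and bZIP list, which also holds Irf4, gave 4 higher (Bach2, Fosb, Irf4 and Nfil3). They gave 3 lower (another Bach2 member, Fos and Jun). Their median of 0.32 turned to -0.72 without Tprog replicate 1 and was -0.09 with equal library totals. Bach2 fell by 1.11 ± 0.24 on the log2 scale (limma adjusted p = 0.0029), and Runx2 by 1.38 ± 0.36 (limma adjusted p = 0.0122). The levels above overlap between the subsets at both, and without the batch term the differences were -0.30 (limma adjusted p = 0.545) and -0.22 (limma adjusted p = 0.769). For Runx2 it was -2.21 (limma adjusted p = 5.82e-05) without Tprog replicate 1 and -0.54 (limma adjusted p = 0.2) without replicate 2. A member near Rgs8, a regulator of G protein signalling (chr1:153634728-153635744), was among the largest, with 48.9 and 94.8 in Tprog and 551 to 718 with a median of 641 in Tterm and a difference of 3.32 ± 0.38, limma adjusted p = 2.95e-06. At the Klrk1 promoter (chr6:129623410-129624344), of the activating receptor NKG2D, Tprog had 23.3 and 74.1 and Tterm 107 to 149 with a median of 125, a difference of 1.66 ± 0.37, limma adjusted p = 0.00379. At that of Klrc1 (chr6:129678342-129679148), of the inhibitory receptor NKG2A, they had 59.4 and 147 and 237 to 309 with a median of 265, a difference of 1.65 ± 0.32, limma adjusted p = 0.00102. In both, and in Rgs8, the subsets did not overlap. Without Tprog replicate 1 the differences of Pdcd1, Havcr2, Rgs8, Klrk1 and Klrc1 were 1.25, 1.37, 2.85, 0.85 (limma adjusted p = 0.156) and 1.00, and that of Klrk1 was not called.

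Endogenous tumour-infiltrating cells, whose T cell receptors are diverse, gave a test in cells and a peak table that the rule did not touch. A member was matched when an endogenous peak covered at least 50% of it, which held for 3290 members (97.8%), against 70.7% of tested peaks and 94.6% of the peaks leaning to either subset, and they fell on 3275 distinct peaks of 71756 tested. The 73 others had no such peak and are not analysed here in endogenous cells. The endogenous table holds no naive libraries, so the rise over naive could not be examined in it. The median member level was 292 in young Tprog, 319 in young Tterm, 285 in aged Tprog, 331 in aged Tterm and 279 in aged Tadys. Over all tested endogenous peaks it lay between 84.3 and 93.9 in these groups, and the backgrounds were not matched for level. In young endogenous Tterm against Tprog 948 of the 3275 (28.9%) were called higher against a background of 14.3%, and 338 (10.3%) lower against 11.3%, so the lower share was near the background. In aged endogenous Tterm against Tprog 692 (21.1%) were called higher against 6.75%, and 80 (2.44%) lower against 5.37%. The median differences over members were small, 0.17 and 0.23 on the log2 scale, against -0.01 and 0.01 over all tested peaks. Of the 57197 peaks with a mean of 30 or more, 10501 were called higher and 7560 lower in young cells, with a median of 0.04. In aged cells 4906 and 3803 were, with a median of 0.02. Members gave 975 higher and 359 lower in that young fit and 730 and 91 in that aged fit. Without aged Tterm replicate 3 the aged count was 452 higher and 44 lower. Equal library totals turned the young count to 661 higher and 558 lower, and quantile scaling to 721 and 437.

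For comparison, of the peaks that leaned to Tterm in young OT-1 cells 1287 of 1367 matched were called higher in young endogenous Tterm and 0 lower, and of those that leaned to Tprog 1337 of 1549 were called lower and 0 higher. The members lay between these sets, with 1989 of 3275 not called in either direction. Over the 3275 peaks the Tterm minus Tprog differences of young and aged endogenous cells had Pearson r 0.79 and Spearman rho 0.78. Over all tested peaks, which have lower levels at the median, these were 0.64 and 0.56. The points are peaks of the same libraries and carry no p. Of the 948 members called higher in young cells 566 (59.7%) were also called higher in aged cells, which is 81.8% of the 692 called there, and 0 were called in opposite directions. Of the members called higher in aged OT-1 Tterm than Tprog and matched, 748 of 1210 (61.8%) were called higher in young endogenous Tterm and 2 lower, and of those called lower 143 of 322 (44.4%) were called lower and 2 higher. Without OT-1 Tprog replicate 1 these were 494 of 665 (74.3%) and 203 of 495 (41.0%), and without replicate 2 776 of 1721 (45.1%) and 99 of 347 (28.5%). Such shared calls are not given here over all tested peaks, so they do not show whether members differ from other peaks.

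**Figure D4:**
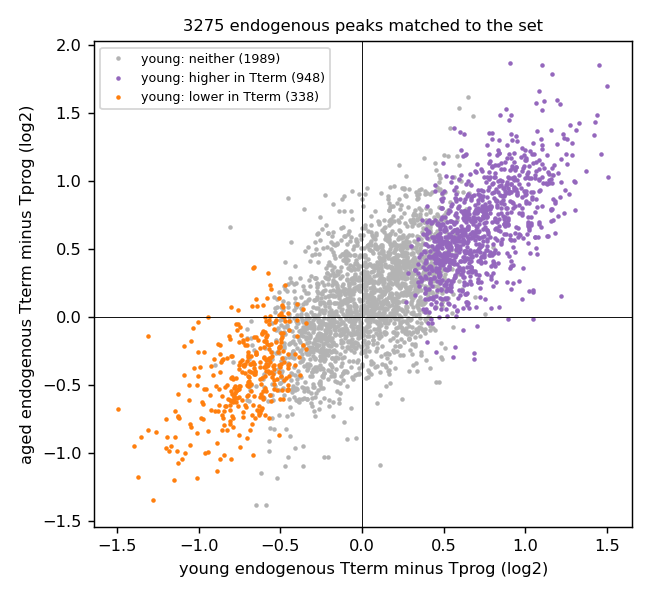
Log2 difference of Tterm against Tprog in young (x axis) and aged (y axis) endogenous cells for the 3275 endogenous peaks matched to members, coloured by the limma call in young cells. The 948 peaks called higher and the 338 called lower in young cells lie at the right and left of the cloud, and 1989 were not called.

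Of 40 matched exhaustion and inhibitory receptor members 17 were called higher in young endogenous Tterm than in Tprog and 1, at Rgs1, lower, where 28.9% and 10.3% of all matched members were, and 11 and 0 in aged cells, where 21.1% and 2.44% were. The young count was 11 and 2 with equal library totals and 12 and 2 with quantile scaling, and most of the 40 were not called at either age. The 11 lay at Havcr2 and Prdm1 (3 each), Id2 and Pdcd1 (2 each) and Rgs16. At the Pdcd1 gene end young Tprog libraries had 2356, 2419, 2639.5 and 2522 and young Tterm 3294, 4078, 3728, 3399 and 3442, and aged Tprog 2640.1, 2764 and 2337 and aged Tterm 3655, 3750.4 and 3679. The subsets did not overlap at either age, with differences of 0.53 ± 0.10, limma adjusted p = 0.000177 in young and 0.52 ± 0.12, limma adjusted p = 0.00349 in aged cells. Havcr2 differed by 0.70 ± 0.11, limma adjusted p = 2.88e-05 and 0.64 ± 0.14, limma adjusted p = 0.00184. The Rgs8 member had 1023, 1136, 1211 and 1105 in young Tprog and 1950.0, 2485, 2756, 2396 and 2044 in young Tterm, a difference of 1.05 ± 0.10, limma adjusted p = 1.72e-08. In aged cells the Rgs8 difference was 1.13 ± 0.13, limma adjusted p = 7.59e-07. Klrc1 differed by 0.75 ± 0.16, limma adjusted p = 0.000863 and 0.75 ± 0.20, limma adjusted p = 0.00957, whereas Klrk1, at -0.21 ± 0.27, limma adjusted p = 0.617 and 0.32 ± 0.33, limma adjusted p = 0.613, was not called. Effector members gave 12 higher (Ifng and Tbx21 with 4 each, Gzmk with 3 and Zeb2) and 2 lower (Csf2 and Xcl1) in young cells and 3 and 0 in aged. The young count was 7 and 2 without young Tprog replicate 4 and 7 and 3 with equal library totals, and the aged count 1 and 0 without aged Tprog replicate 1, aged Tterm replicate 2 or aged Tterm replicate 3. The Ifng member differed by 0.46 ± 0.10, limma adjusted p = 0.00121 in young and, uncalled, by 0.36 ± 0.13, limma adjusted p = 0.0625 in aged cells.

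Members of the AP-1 and bZIP list, which also holds Irf4, were mostly not called between endogenous subsets. Of 17, 1 was higher (Nfil3) and 2 lower (both Bach2) in young cells, and 1 (Nfil3) and 2 (Bach2 and Irf4) in aged. Bach2 was one of the lower ones, with 742, 917, 841 and 754 in young Tprog and 480.0, 526, 432, 453 and 361 in young Tterm and no overlap, a difference of -0.86 ± 0.15, limma adjusted p = 9.6e-05. In aged cells it was -0.58 ± 0.18, limma adjusted p = 0.0368. Runx2 had a difference of -0.47 ± 0.13, limma adjusted p = 0.00839 in young cells and -0.03 ± 0.16, limma adjusted p = 0.94 in aged, where it was not called. Members that did not separate the subsets at either age included Tox, at -0.14 ± 0.21, limma adjusted p = 0.695 and -0.56 ± 0.26, limma adjusted p = 0.173, Itpr1, at -0.02 ± 0.13, limma adjusted p = 0.951 and 0.23 ± 0.16, limma adjusted p = 0.405, and Il2ra, at 0.06 ± 0.15, limma adjusted p = 0.811 and 0.14 ± 0.18, limma adjusted p = 0.722. The young lower count was 6 with equal library totals and 4 without young Tterm replicate 3, and the aged one was 1 without aged Tprog replicate 1 and 0 without aged Tprog replicate 2 or 3 or aged Tterm replicate 2 or 3. Of 7 matched residency members 1, at Itgb1, was lower and 0 higher in young cells, a lower count of 0 to 2 with 1 library left out. Of 13 cytokine receptor members 4 were higher (Il10ra with 2, Il18rap and Il2rb) and 0 lower. Of 18 costimulation members 7 were higher (Tnfaip3 and Tnfrsf9 with 2 each, Cd28, Icos and Nfatc1) and 1 lower (Nfkb1), with 4 and 1 without young Tprog replicate 4 and 4 and 3 with equal library totals. The naive and progenitor members gave 0 higher and 4 lower, at Bach2 and Myb. Over all matched members 28.9% were called higher and 10.3% lower in young cells.

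Few members were called for age in endogenous cells, which does not show that the others were unchanged. In aged against young endogenous Tterm limma called 0 higher and 0 lower, where the backgrounds were 0.00697% and 0.00139%. At an unadjusted p below 0.05 there were 230 higher and 186 lower, 12.7% of members against a background of 7.14%. The count test of edgeR called 1 higher and 3 lower, against a background of 0.0376%, and DESeq2 16 and 15, against 0.466%. In aged against young endogenous Tprog 3 members were called higher against a background of 0.0822% and 15 lower against 0.0836%. These counts ran from 0 to 20 in all when 1 library was left out: 0 without aged Tprog replicate 1, 1 without young Tprog replicate 4, 4 without young replicate 2 or 3, and 10 without aged replicate 3. In Tprog, 218 of the 3275 members were higher and 386 lower at an unadjusted limma p below 0.05, against 9029 of all 71756 tested peaks in either direction. DESeq2 called 20 members higher and 52 lower in Tprog, against 349 and 334 of 63407 peaks. The difference between the subsets' age effects, tested as an interaction, was called for 0 members. For it 159 were positive and 69 negative at an unadjusted p below 0.05, 6.96% of members against a background of 7.91%. A member inside Fndc3b (chr3:27606147-27608176) had 92.2, 204, 146 and 140.3 in young Tprog and 423, 337 and 266 in aged Tprog, at 1.26 ± 0.23, limma adjusted p = 0.02. Its aged libraries lay above all young ones, as they did in Tterm, where the difference of 1.09 ± 0.22, limma adjusted p = 0.105 was not called. The other 2 called higher lay inside Kcnk10, a potassium channel gene, at 1.01 ± 0.20, limma adjusted p = 0.0295, and inside Plek, at 0.86 ± 0.19, limma adjusted p = 0.0472. A member inside Arel1, which encodes a ubiquitin ligase that limits apoptosis (chr12:84933754-84934547), had 229, 248, 249 and 312 in young and 88.4, 129.9 and 61.5 in aged Tprog, with no overlap and a difference of -1.52 ± 0.25, limma adjusted p = 0.0159. Ptch1, the Hedgehog receptor, had a member nearby (chr13:63578748-63579322) with 109, 197, 203 and 162 in young and 19.2, 71.4 and 70.6 in aged Tprog, at -1.80 ± 0.37, limma adjusted p = 0.0346. The Pdcd1, Havcr2, Tox, Ifng and Tcf7 members were not called in either age comparison.

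In aged Tadys cells, which lack both sorting markers, the members were lower than in aged Tterm more often than higher. Against aged Tterm 388 of 3275 (11.8%) were called lower with a background of 4.23% and 20 higher with a background of 2.06%, at a median log2 difference of -0.27 over members and -0.03 over all tested peaks. Against aged Tprog 141 were called lower with a background of 4.04% and 103 higher with a background of 2.61%, at medians of -0.04 and -0.01. With 2 Tadys libraries these counts rested on single libraries: without Tadys replicate 1 they were 67 lower and 21 higher against Tterm and 6 and 57 against Tprog, and without replicate 2 they were 621 and 6, and 352 and 66. The first was 222 lower and 4 higher without aged Tterm replicate 1 and 149 and 3 without replicate 3, and the second was 35 and 60 without aged Tprog replicate 2 and 56 and 72 without replicate 3. With equal library totals the second was 126 lower and 147 higher, with quantile scaling 151 and 202, and with edgeR 78 and 93, so the direction in which more members were called changed with the scaling. With the compared groups alone 84 members were called lower and 1 higher against Tterm, and 9 and 3 against Tprog. Median member levels were 242 and 321 in the 2 Tadys libraries. Of the exhaustion members 8 were lower than in Tterm (Havcr2 with 3, Prdm1 with 2, Cd38, Pdcd1 and Rgs16), a count of 1 without Tadys replicate 1 and 19 without replicate 2. Of the effector members 5 were lower (Ifng with 3, Gzmk and Zeb2), with 0 higher in either list. The effector count was 1 lower and 1 higher without Tadys replicate 1, 2 lower without aged Tterm replicate 1 and 1 lower without aged Tterm replicate 3. Pdcd1 had 1849.5 and 2660.2 in Tadys, below every aged Tterm library, at -0.74 ± 0.13, limma adjusted p = 0.00197, and was not called against Tprog. Havcr2 had 569 and 754 in Tadys, at -0.57 ± 0.15, limma adjusted p = 0.025 from Tterm. Klrc1 and Klrk1 were lower in Tadys than in Tterm too, at -1.20 ± 0.22, limma adjusted p = 0.002 and -1.44 ± 0.36, limma adjusted p = 0.0181. Rgs8 had 1280.4 and 1329 in Tadys, between Tprog and Tterm, at -0.80 ± 0.14, limma adjusted p = 0.00164 from Tterm. Both comparisons share the Tadys libraries. The differences named here rest on the same 2 libraries and are not given with 1 of them left out. Over all members the median difference from Tterm was -0.07 without Tadys replicate 1 and -0.47 without replicate 2. Of the 1367 matched peaks leaning to Tterm, 0 were called higher and 398 lower in Tadys than in Tterm. Against Tprog, 312 of them were higher and 2 lower. Of the 1549 matched peaks leaning to Tprog, 227 were called higher and 9 lower in Tadys than in Tterm. Against Tprog, 14 of these were higher and 239 lower.

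**Figure D5:**
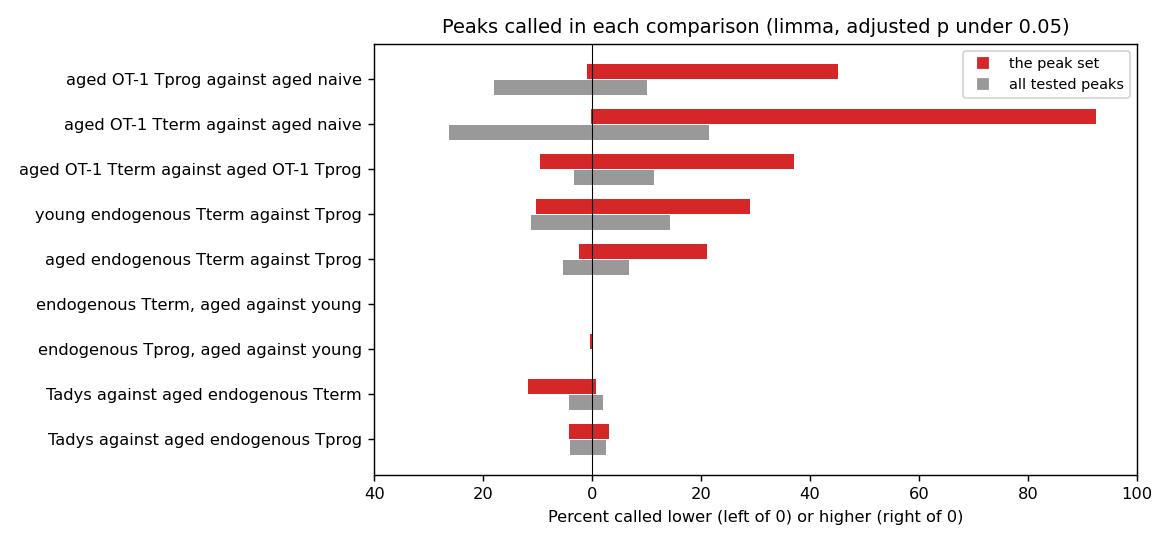
Share of peaks called lower (left) and higher (right) by limma in each comparison, for the members (red) and for all tested peaks (grey). The members reach 92.4% higher in aged OT-1 Tterm against naive and 45.1% in aged OT-1 Tprog against naive, 28.9% and 21.1% higher in young and aged endogenous Tterm against Tprog, and 11.8% lower in Tadys against aged Tterm.

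Some members low in young naive cells, as the rule requires, were open in aged naive cells. A mean in aged naive of at least 3 times that in young naive was found for 286 members (8.50%), against 3.42% of tested peaks, 14.6% of the peaks leaning to Tterm and 7.73% of those leaning to Tprog, and the reverse for 14 members (0.416%) against 3.78% of tested peaks. The aged naive mean was the higher one for 2411 members (71.7%), against 56.9% of tested peaks. Since the rule sets young naive low, these shares are a description with no test. The member near Man2b2 (chr5:36839201-36840830), a lysosomal mannosidase gene, had 153 and 134 in young naive and 965 and 914 in aged naive, close to the 852 and 899 of young OT-1 Tprog. A member inside Gnptab (chr10:88427594-88428685), which tags lysosomal enzymes, had 84.8 and 102 in young naive and 739 and 688 in aged naive. At the Gnptab member aged OT-1 Tterm had 619 to 907 with a median of 802 and was not called against aged naive, at 0.09 ± 0.32, limma adjusted p = 0.825. Man2b2 and Gnptab were named after their values were seen; the Ifng and Tcf7 members described above had the same order of young and aged naive.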

How the data were processed

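Accessibility was measured by ATAC-seq with read pairs of 50 bp. Per the submitters' processing notes, the build was mm10 and the tools named, with no role given, were MACS2 2.1.1, Bowtie2 2.2.9, DESeq2 1.28.1, Picard 2.8.0 and SAMtools 1.3.1. Read shifting for the transposase and peak merging are not given in the sources used here. The deposited tables hold signal values per peak, which are reads divided by a size factor per library, over 169323 peaks by 21 libraries (naive and OT-1) and 73610 peaks by 17 libraries (endogenous). Whole reads were recovered for 100% of values within 0.01 read and served for depth, edgeR 4.0.16 and DESeq2 1.42.0. No 2 libraries of the same group agreed within sampling noise, and libraries of different groups were not compared.

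Tests covered peaks whose mean over a table's libraries reached 10 (84091 and 71756), and all 3363 members passed, which the rule ensures. Log2 of normalized reads plus 1 entered limma 3.58.1 (R 4.3.3), 1 model per table holding every group, with a trend of variance on level and, for naive and OT-1 libraries, a Batch 6 term, and p-values were adjusted over all tested peaks by Benjamini-Hochberg. Because of the batch term a fitted difference can depart from the ratio of means. The fit was also run on simulated data that had the same spread for all peaks and no batch shift. That run does not cover batch or library differences like those seen here. Genes came from a RefSeq table of GRCm38.p6 (21887 protein-coding genes); exons and introns were not used here. Members were matched to endogenous peaks covering 50% of them.

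The members and gene lists were chosen with earlier results of these data known. Named were the 10 members highest in both aged OT-1 subsets, up to 3 for each of 6 lists, the 4 largest called differences in each direction between subsets, the 6 genes with most members, Havcr2, Pdcd1, Tox, Gzmb, Ifng and Tcf7, and up to 4 called for age or Tadys; the text uses a part, and 2 genes the rule named are not reported here. Promoter members and members open in aged naive cells were added after their values were seen. Alternatives were other pseudocounts, filters, scalings and tools, a replicate block (without the Batch 6 term), no batch term, the compared groups alone, Batch 6 alone, an overlap of 1 bp, other gene distances, other member thresholds and each library left out.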

Additional observations from a re-analysis of the deposited data

Results flagged for a closer look

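In groups of 4 to 10 libraries, the highest or lowest library of each named member was compared with its neighbours by Dixon's criterion, and 15 of 103 groups stood out, where chance gives about 1 in 20. In 14 of them the library was aged OT-1 Tterm replicate 6, the only Batch 6 library of its group, and it was the lowest each time. Its normalized reads were 1092 at the Plekha2 member, 784 at Iqgap1, 203 at Nfat5, 354 at Coq8a, 510.1 at Rgs16, 491 at Tnfrsf18 and 161 at Il1rl1. They were 66.9 at Il2ra, 22.4 at Tenm4, 62.4 at Arel1, 298 at Itpr1, 183 at Etv6, 94.7 at the Tnfrsf4 promoter (nearest gene body Sdf4) and 350.1 at Ccr8. Batch moved with these values, and its part in them was not tested. The other was aged OT-1 Tterm replicate 1 at Dynlrb2, with 123.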

How the results depend on the processing

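The rule gave 5897 members at a fold of 2 over naive, 1966 at a fold of 4, and 3273 to 3493 with 1 young library left out. With 1 library left out, members called higher ran from 1278 to 2176 in aged OT-1 Tprog and from 2816 to 3120 in aged OT-1 Tterm against naive. Members called in either direction ran from 1172 to 2118 between aged OT-1 subsets, 1033 to 1257 between young and 496 to 647 between aged endogenous subsets, 0 to 2 and 0 to 20 for age in Tterm and Tprog, and 88 to 627 and 63 to 418 for Tadys against Tterm and Tprog. Aged OT-1 Tterm against Tprog gave 1568 called, 172 with the aged libraries alone and 1 within Batch 6; fewer libraries entered those fits. For age in Tterm a pseudocount of 5 gave 1, edgeR 4, DESeq2 31 and the compared groups alone 5. For age in Tprog (18) equal totals gave 28, quantile scaling 32, DESeq2 72 and the compared groups alone 28. Tadys gave 85 against Tterm and 12 against Tprog with the compared groups alone. Apart from what the construction of an alternative shows, the cause was not tested. With the replicate number as a block, age in Tprog gave 10, aged OT-1 Tterm against Tprog 1300 higher and 5 lower, and Tadys against Tterm 13 higher, and no other count over all members moved by over 1.5 times. The block fit held no Batch 6 term. Without that term and with no block, aged OT-1 Tterm against Tprog gave 1547 higher and 3 lower. Same-numbered libraries deviated together in no comparison with 3 or more pairs (r from -0.27 to 0.06, with at most 1 library set correlating best with its own number). With 2 pairs, r was 0.14 to 0.20 for aged OT-1 Tterm against Tprog and 0.07 to 0.08 for Tadys against Tprog. It was -0.26 to -0.06 in the other comparisons with 2 pairs. So few pairs cannot settle whether the numbers pair libraries. Without aged OT-1 Tprog replicate 2, the Tprog minus naive difference was called with the opposite sign at Fosb (-0.91, and 1.19 without replicate 1) and Tbx21 (-1.22, and 1.38). Equal library totals moved the median of all tested peaks from -0.36 to 0.06 for aged OT-1 Tprog against naive, 0.15 to -0.25 for OT-1 Tterm against Tprog and -0.01 to -0.17 for young endogenous Tterm against Tprog; the members' median minus that of all peaks kept its sign in all alternatives, at 1.12 to 2.00, 0.09 to 1.05 and 0.07 to 0.22. In the Tadys against Tprog comparison it ran from -0.26 to 0.16. The rule admits levels of 50, and whether depth affects the weakest members was not tested.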
